A study of Homo sapiens with 8 samples.

Results

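Plastins and other proteins that crosslink actin filaments were examined in 4 lines of FT293 cells, human embryonic kidney HEK293 cells that carry a single integrated, tetracycline-inducible transgene. The 7 genes are the 3 plastin genes LCP1, PLS1 and PLS3, the fascin gene FSCN1, the α-actinin genes ACTN1 and ACTN4 and the filamin gene FLNA. They were found by gene name among the non-control probes of the array design, which gave 9 probes of 50599 and 7 gene names of 32080. FLNA had 3 probes and every other gene had 1. The set was assembled around LCP1 because its signal is very low in the HuR line, so every LCP1 value against that line is a description and was not tested. For the other 6 genes the question was whether any of them also differed between the lines.

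The lines expressed GFP alone (the control), GFP-HuR, GFP-TIA1 or GFP-TIAR. HuR, TIA1 and TIAR are RNA-binding proteins that act on messenger RNAs, mainly through U-rich and AU-rich stretches. Total RNA was taken after 3 days of tetracycline and hybridized to one-colour Agilent arrays, with 2 biological replicates for each line and 8 arrays in all. The lines were made as stable, isogenic lines by recombination at a single genomic site, so what is measured for a protein is measured in one such line. All of them, the control included, received tetracycline and carry a transgene that encodes GFP, alone or as a tag, in the same HEK293 background. One label disagrees with the rest, since the source name of TIA1 replicate 2 reads GFP-TIA2 whereas its title reads GFP-TIA1, and it was kept in the TIA1 group.

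Actin filaments are held together by proteins with more than one actin-binding site. Plastins (fimbrins) and fascin pack filaments into tight parallel bundles, α-actinins form looser antiparallel bundles, and filamins join crossing filaments into networks. LCP1, or L-plastin, is known from leukocytes and is often switched on in tumour cells. PLS1, or I-plastin, is known from the intestinal brush border and from the stereocilia of the inner ear, and PLS3, or T-plastin, is found in many solid tissues. Fascin, encoded by FSCN1, is the bundler of filopodia.

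Signals are given as log2 of the processed intensity minus the 75th percentile of the array, so that 0 marks the 75th percentile and negative values are dimmer spots. A level is compared between lines for the same probe only. A gene was called changed when limma gave an adjusted p under 0.05 (Benjamini-Hochberg, over all tested probes) and the 2 lines differed at least 2-fold. All 9 probes were well above background on all 8 arrays and none was saturated. The arrays lay on 1 slide. The replicates of each line lay side by side in 1 row, so line and place on the slide cannot be told apart. GFP 1 stood apart from the rest, with 86.1% of probes well above background against 53.3 to 58.6% on the other 7 arrays and a mean local background of 88.7 against 37.2 to 43.2. Of 8 HEK293 marker genes, KRT8, KRT18, VIM, CDH2, PAX2 and NEFL were well above background on every array. NEFM was so on every array but GFP 2, while PAX8 was well above background on both arrays of none of the lines. A probe of TIAL1, the gene of TIAR, stood at 4.87 and 4.98 in the TIAR line and at 1.63 to 2.52 elsewhere. The probe of ELAVL1, the gene of HuR, was not higher in the HuR line (0.33 and 0.42) than on the GFP arrays (1.09 and 0.91). Neither TIA1 probe was higher in the TIA1 line, and both were lower in the TIA1 and TIAR lines than in the GFP and HuR lines. The brighter of them averaged -0.97 in TIA1 and -1.56 in TIAR cells, against 0.06 in GFP and 0.01 in HuR cells. Whether these probes lie within the transgenes is not given in the sources used here, so they do not check the labels of those lines.

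LCP1 was bright in the GFP, TIA1 and TIAR lines and dim in the HuR line. Its probe (NM_002298) lies on chromosome 13 from 46700337 to 46700396, minus strand, on hg19. The LCP1 log2 signal was 3.28 and 3.98 on the GFP arrays, 3.32 and 3.19 on the TIA1 arrays, 3.61 and 3.51 on the TIAR arrays, and -4.29 and -4.15 on the HuR arrays. As processed intensities, the HuR arrays read 80.3 and 93.8, while the other 6 arrays read 10982 to 21127. The HuR arrays were therefore the lowest by a wide margin and the other lines overlapped or lay close together. Mean LCP1 signal in HuR cells was -4.22 ± 0.09 (SD, n = 2), against 3.63 ± 0.50 in GFP, 3.25 ± 0.09 in TIA1 and 3.56 ± 0.06 in TIAR cells. The HuR line was thus 230-fold below GFP, 178-fold below TIA1 and 220-fold below TIAR, values that chose the gene and carry no test. The size depended on the arrays and the processing, since leaving out GFP 1 gave -8.20 for HuR against GFP, and the authors' own log2 values gave -6.68 for the same difference, 6.36 for TIA1 against HuR and 6.74 for TIAR against HuR.

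Between the 3 lines that kept LCP1 the differences were small. The TIA1 line differed from GFP by -0.38 (standard error 0.31, adjusted p = 0.52 from limma) and the TIAR line from GFP by -0.07 (standard error 0.31, adjusted p = 0.92). The TIAR line exceeded the TIA1 line by 0.31 on the log2 scale, with no overlap between their arrays and an adjusted p of 0.22 from limma (95% interval -0.01 to 0.62). None of these passed the test, and GFP replicates spanned more than the gap between the other lines.

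**Figure D1:**
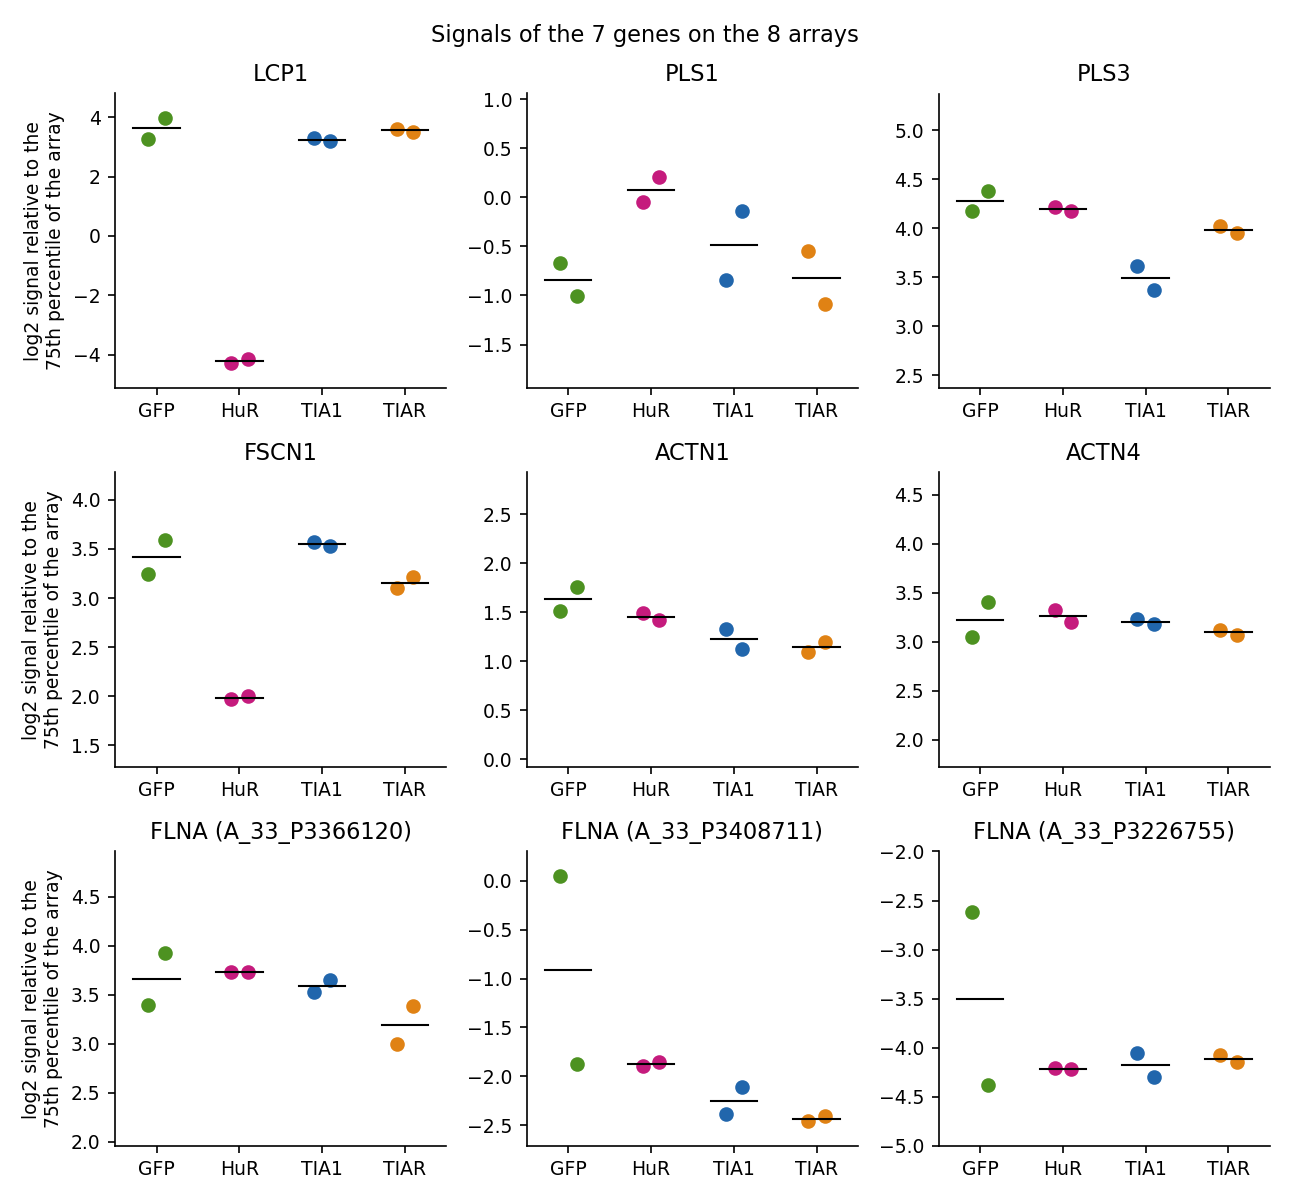
Log2 signal of each probe relative to the 75th percentile of its array (vertical axes, whose ranges differ) in the 4 lines (horizontal axes); points are arrays, replicate 1 to the left of replicate 2, and bars are means of 2. LCP1 and FSCN1 are lowest on both HuR arrays, PLS3 is lowest on both TIA1 arrays, and the 2 dimmer FLNA probes are high on GFP 1 alone.

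The promoter of LCP1 has fewer CpG than the most upstream promoters of its paralogues. RefSeq start sites were found in the promoter table for 6 of the 7 genes; FSCN1 had no entry. The 250 bases before the most upstream listed start are shown for the plastins, with every CG in capitals (GRCh38.p14, 5′ to 3′ on the gene's strand). They are LCP1 chr13:46182178-46182427 on the minus strand, PLS1 chr3:142596143-142596392 and PLS3 chrX:115560924-115561173 on the plus strand.
LCP1: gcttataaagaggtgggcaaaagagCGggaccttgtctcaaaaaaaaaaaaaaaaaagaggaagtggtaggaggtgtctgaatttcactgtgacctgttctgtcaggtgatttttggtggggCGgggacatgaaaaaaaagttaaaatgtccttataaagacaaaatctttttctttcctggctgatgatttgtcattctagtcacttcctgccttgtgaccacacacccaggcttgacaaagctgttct
PLS1: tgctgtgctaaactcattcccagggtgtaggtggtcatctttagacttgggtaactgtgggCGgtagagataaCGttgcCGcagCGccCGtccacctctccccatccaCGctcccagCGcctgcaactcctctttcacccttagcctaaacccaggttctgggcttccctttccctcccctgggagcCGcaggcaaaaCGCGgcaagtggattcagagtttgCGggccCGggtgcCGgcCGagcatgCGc
PLS3: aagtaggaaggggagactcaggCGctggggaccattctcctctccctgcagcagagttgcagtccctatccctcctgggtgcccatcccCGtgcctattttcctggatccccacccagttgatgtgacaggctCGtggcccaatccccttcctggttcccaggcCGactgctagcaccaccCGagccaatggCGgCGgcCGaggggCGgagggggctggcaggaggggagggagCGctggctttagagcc
The LCP1 stretch holds 2 CG and is 41.2% G or C, and 22.9% of the 35116 promoter stretches in the table hold as few CG or fewer. It also holds the letters TATAAA 2 times, counting both strands, a motif that 10.7% of these stretches have at least once. The PLS1 stretch holds 15 CG and that of PLS3 holds 10, against a median of 11 over all stretches, and neither holds TATAAA. The later start sites of PLS1 and PLS3 had 0 to 2 CG. For FLNA the only entry had 35 CG, and the most upstream entries of ACTN1 and ACTN4 had 25 and 40. These are properties of the sequence and were not set against the signals, and the start used in these cells was not measured.

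The other plastins did not follow LCP1. The 3 plastin probes share at most 7 consecutive bases of their 60 with one another, so each was read as its own gene. PLS1 (NM_002670, chromosome 3 from 142432120 to 142432179) read higher on the HuR arrays than elsewhere but was not called. Its log2 signal was -0.05 and 0.21 on the HuR arrays, -0.67 and -1.01 on the GFP arrays, -0.84 and -0.14 on the TIA1 arrays, and -0.55 and -1.09 on the TIAR arrays. Both HuR arrays were above all other arrays, with TIA1 replicate 2 close behind. PLS1 in HuR cells differed from GFP by 0.92 (standard error 0.22, 1.89-fold), with an adjusted p of 0.22 from limma. The TIAR line lay below HuR by a log2 fold change of -0.90 (standard error 0.23, 1.87-fold), which passed the p threshold (adjusted p = 0.049) but not the fold threshold, and the TIA1 line by -0.57 (standard error 0.27, adjusted p = 0.16). The PLS1 values depended on single arrays: without GFP 1 the HuR line was called higher than GFP (1.09, adjusted p = 0.03), and without TIAR 1 the TIAR line was called lower than HuR (-1.17, adjusted p = 0.022), as fitted with limma. PLS1 in the TIA1 and TIAR lines differed from GFP by 0.35 and 0.02, with adjusted p-values of 0.57 and 0.98 from limma.

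PLS3 (NM_005032, chromosome X from 114884316 to 114884375) was bright in every line and lowest in TIA1 cells. The log2 signal was 4.18 and 4.38 for GFP, 4.22 and 4.18 for HuR, 3.62 and 3.37 for TIA1, and 4.02 and 3.95 for TIAR. No array of the TIA1 line reached any array of another line, and the GFP and HuR arrays overlapped. PLS3 was lower in TIA1 than in HuR cells by a log2 fold change of -0.71 (standard error 0.12, 95% interval -1.04 to -0.37, adjusted p = 0.016 from limma), a 1.63-fold change that stays under the fold threshold. The p threshold alone was passed by 42.5% of all genes in that comparison. Against GFP the TIA1 line was at -0.79 (standard error 0.22, adjusted p = 0.17), and the TIAR line exceeded TIA1 by 0.49 (adjusted p = 0.13), neither past the limma threshold. HuR and GFP cells differed by -0.09, with a 95% interval of -0.57 to 0.40 that leaves out a 2-fold change in either direction.

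FSCN1 was the gene of the set, besides LCP1, with a clearly lower signal in HuR cells. The FSCN1 probe (NM_003088, chromosome 7 from 5646220 to 5646279) read 1.97 and 2.00 on the HuR arrays, 3.24 and 3.59 on the GFP arrays, 3.57 and 3.53 on the TIA1 arrays and 3.10 and 3.21 on the TIAR arrays. Both HuR arrays lay well below all others, whose lines ran close to each other. FSCN1 was called higher in TIA1 than in HuR cells (log2 fold change 1.57, standard error 0.09, 2.96-fold, adjusted p = 0.0024 from limma). It was also called higher in TIAR than in HuR cells (1.17, standard error 0.10, 2.25-fold, adjusted p = 0.0061), but that call was lost without either HuR array (adjusted p = 0.063 without HuR 1 and 0.066 without HuR 2). Against GFP the HuR line was not called, with a log2 fold change of -1.43 (standard error 0.20, 2.69-fold), an unadjusted p of 0.0028 and an adjusted p of 0.18. That difference was called when all 8 arrays were fitted together (adjusted p = 0.012) and when either GFP array was left out (-1.61, adjusted p = 0.015 without GFP 1, and -1.25, adjusted p = 0.0041 without GFP 2). TIA1 and TIAR cells differed from GFP by 0.14 and -0.26 (adjusted p = 0.74 and 0.58) and from each other by -0.40 (adjusted p = 0.13 from limma).

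ACTN1, ACTN4 and the brightest FLNA probe differed by less than 2-fold in every comparison and were not called. ACTN1 (NM_001102, chromosome 14 from 69341703 to 69343826) had log2 signals of 1.51 and 1.76 in GFP, 1.49 and 1.42 in HuR, 1.33 and 1.13 in TIA1 and 1.09 and 1.20 in TIAR cells. ACTN4 (NM_004924, chromosome 19 from 39220305 to 39220364) stayed between 3.05 and 3.40 on all arrays. For ACTN4 all 6 comparisons had 95% intervals within a 2-fold change, the widest from -0.76 to 0.49 for TIAR against GFP. ACTN1 was lower in TIAR than in HuR cells by a log2 fold change of -0.31, with an adjusted p of 0.086 from limma.

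The brightest FLNA probe (NM_001110556, chromosome X from 153577264 to 153577323) read 3.39 and 3.92 in GFP, 3.73 and 3.73 in HuR, and 3.53 and 3.65 in TIA1 cells, and averaged 3.19 ± 0.27 (SD, n = 2) in TIAR cells. The TIAR arrays were the lowest, and their difference from HuR was -0.54 (standard error 0.16, adjusted p = 0.069 from limma). Another FLNA probe (NM_001456, from 153589844 to 153589903) differed by -0.55 between TIAR and HuR cells, with an adjusted p of 0.021 (limma) and a 1.47-fold change. The p threshold alone was passed by 31.8% of all genes in that comparison. The last (AK125630, from 153601752 to 153601811) differed by 0.10 (adjusted p = 0.46), so the FLNA probes disagreed in sign. Against GFP the NM_001456 probe was at -1.52 in TIAR and -1.34 in TIA1 cells (2.86- and 2.52-fold, adjusted p = 0.38 and 0.35, limma), and these means rest on GFP 1. That array read 0.05 on the NM_001456 probe and -2.62 on the AK125630 probe, while every other array read between -2.46 and -1.85 and between -4.38 and -4.06.

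**Figure D2:**
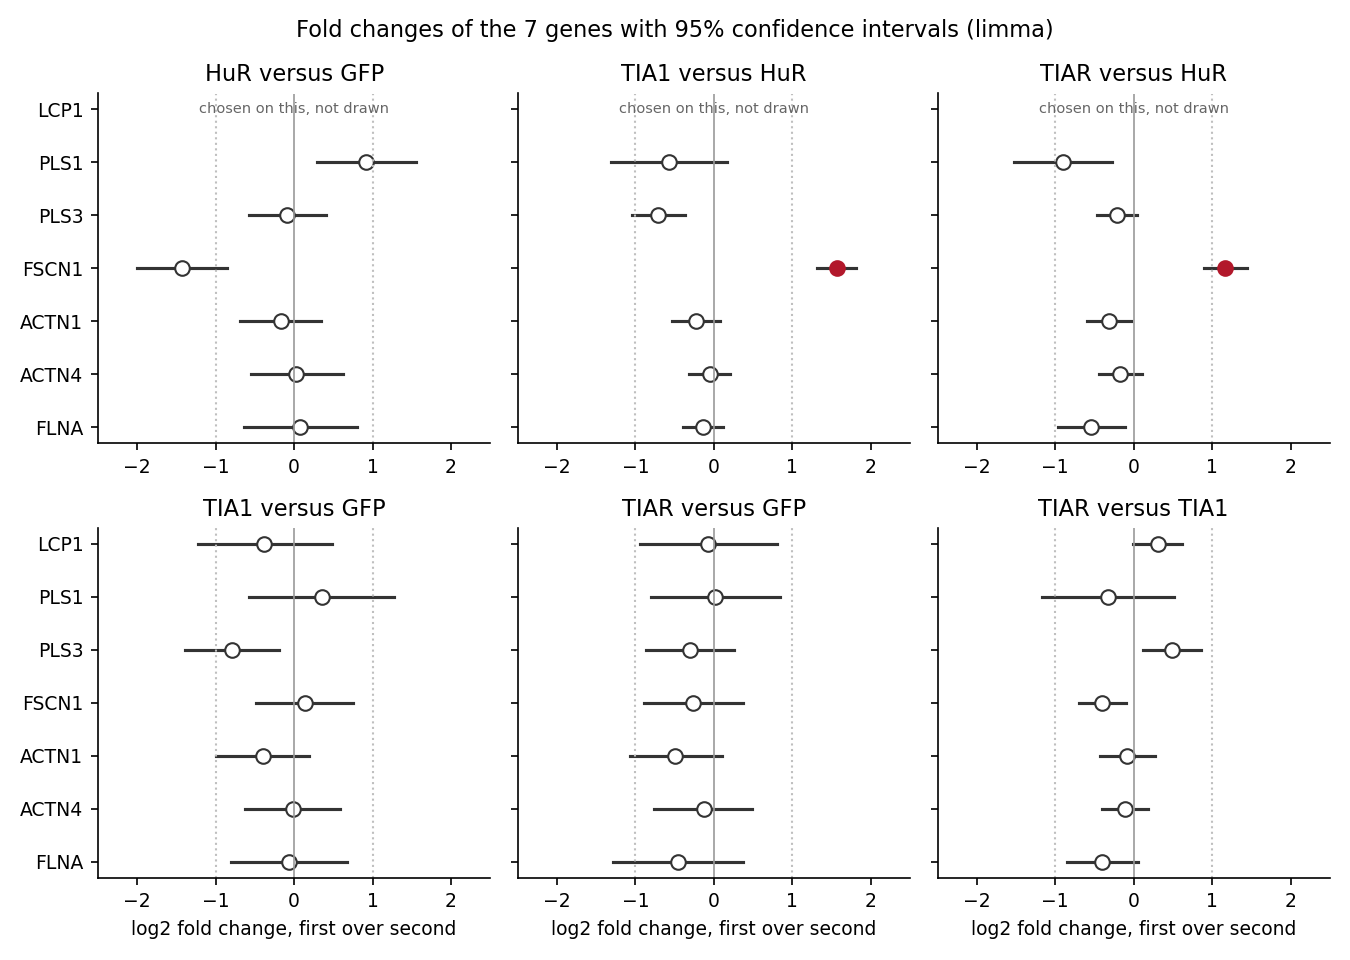
Log2 fold changes (horizontal axes, first line over second) of the 7 genes in the 6 comparisons with 95% confidence intervals from limma; filled circles are called genes, dotted lines mark a 2-fold change, and FLNA is shown by its brightest probe. FSCN1 is the called gene in TIA1 and TIAR versus HuR; LCP1 against HuR is not drawn, because it was chosen on those values.

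Over the set, 1 of the 6 tested genes, FSCN1, was called higher in TIA1 than in HuR cells, where 8.55% of all 19274 tested genes were called higher and 13.5% in either direction. In TIAR against HuR cells it was again 1 of 6, with 7.5% of 19499 genes called higher and 10.5% in either direction. The latter share rested on both HuR arrays, since the 1462 genes called higher and 578 lower became 482 and 60 without HuR 1 and 413 and 57 without HuR 2, and its split moved to 1031 and 692 with quantile normalization. Neither count is a result about the set, since 1 gene of 6 is the smallest count above none. No gene of the set was called by limma in TIAR against TIA1 cells (0 of 7, background 2.42%), while PLS3 and FSCN1 had an unadjusted p under 0.05, as did 23.8% of all genes. The paired test of the study's methods gave ACTN4 and LCP1 before adjustment, beside 13.3% of all genes, and 0 genes after it. No gene was called in any comparison with GFP, where limma called 0 of all genes tested (0%). That count was not stable over all genes: without GFP 2, 1468 genes were called higher and 2783 lower in TIA1 cells and 1173 and 2644 in TIAR cells. At an unadjusted p under 0.05 these comparisons held 2 genes for HuR (PLS1 and FSCN1), 1 for TIA1 (PLS3) and 0 for TIAR, beside 17%, 21.8% and 16.3% of all genes. The same paired test gave 0 genes of the set for each of the comparisons with GFP, also before adjustment. Before adjustment it gave 6.23%, 8% and 7.01% of all genes for HuR, TIA1 and TIAR, so 0 in so small a set is near those shares. The median log2 fold change over the tested genes of the set was -0.18 for TIA1 and -0.26 for TIAR against HuR, beside 0.08 and 0.06 over all tested genes.

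The 4 lists of related genes, chosen with earlier results of these data known, set the crosslinkers among the wider actin machinery. In TIA1 and TIAR against HuR cells a minority of each list was called, and the medians stayed near those of all genes. Of 30 tested bundlers and crosslinkers outside the set, 2 were called higher and 0 lower in TIA1 cells (median 0.07) and 3 higher and 0 lower in TIAR cells (median 0.18), against HuR. Over all genes 8.55% were called higher in TIA1 and 7.5% in TIAR cells, so these counts were near the background. The largest was SPTB, which encodes β-spectrin of the membrane skeleton, with log2 signals of -2.67 and -2.70 on the HuR arrays, -0.23 and -0.32 on the TIA1 arrays, -0.79 and -0.73 on the TIAR arrays and -1.92 and -2.90 on the GFP arrays. The SPTB fold change was 5.3 in TIA1 and 3.79 in TIAR over HuR cells (adjusted p = 0.0018 and 0.0037, limma), but the other tested SPTB probes were not called (-0.83 for TIA1, and -0.60 and -0.05 for TIAR). ESPNL, an espin-like gene, was called higher by 1.58 in TIA1 and by 1.42 in TIAR cells, the latter not without HuR 1 or HuR 2 (adjusted p = 0.057 and 0.06, limma). SPTBN1, another β-spectrin, was called higher by 1.49 in TIAR cells on its brightest probe and lower by a log2 fold change of -1.13 on its other one (adjusted p = 0.0061), so it has no single direction. The SPTBN1 call was lost without HuR 2 (adjusted p = 0.059, limma), whereas both SPTB calls held without each array in turn.

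Among actins, tropomyosins, calponins and nonmuscle myosins, 3 of 21 tested genes were called higher and 1 lower in TIA1 cells, and 2 higher and 1 lower in TIAR cells. Over all genes 8.55% were called higher in TIA1 and 7.5% in TIAR cells, so counts this small are not a result about the list. CNN1, a smooth muscle calponin, was at -3.79 and -3.62 in HuR, -0.99 and -0.83 in TIA1, -2.14 and -2.05 in TIAR and -1.58 and -2.92 in GFP cells. CNN1 was the one listed gene also called between the TIA lines, with a log2 fold change of -1.19 for TIAR against TIA1 (adjusted p = 0.031, limma), where 1.05% of all genes were called lower. That call did not hold with the replicate number as a block (adjusted p = 0.082) or without any 1 of the 4 arrays (adjusted p from 0.11 to 0.13, limma). ACTG2, the enteric smooth muscle actin, was not well above background on either HuR array and was tested only through the TIA lines. By mean signal ACTG2 was 3.24-fold higher in TIA1 and 2.88-fold higher in TIAR cells. These folds depend on the dim HuR signal and are not lower bounds. ACTA2, the vascular smooth muscle actin, went the other way (-1.85 for TIA1 and -1.65 for TIAR against HuR), with HuR arrays at -0.69 and -0.67, GFP arrays at -1.50 and -0.78 and the 4 TIA arrays between -2.78 and -2.10. Over all genes 4.94% were called lower in TIA1 and 2.96% in TIAR cells. The ACTG2 calls and the ACTA2 call in TIAR cells were lost without HuR 1 or HuR 2 (adjusted p from 0.051 to 0.076, limma), and the CNN1 call in TIAR cells without HuR 1 (0.051).

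Of 47 tested genes for actin nucleation, capping and severing, 1 was called higher and 2 lower in TIA1 than in HuR cells, and 0 in TIAR cells, all below the shares of 8.55% and 4.94% for TIA1 and 7.5% and 2.96% for TIAR over all genes. These were the formin gene DIAPH3 (1.13, with its other probe at 1.03), the cofilin gene CFL2 (-1.33) and WASF3 (-1.13), whose product activates branched nucleation. Of 24 genes for membrane and focal adhesion linkers, FERMT1 (1.51) and LASP1 (1.19) were called higher and PARVB (-1.54) lower in TIA1 cells, and LASP1 (1.38) was called higher in TIAR cells, counts of 2 and 1 in TIA1 and 1 and 0 in TIAR cells that lie near those shares. Both LASP1 calls were lost without HuR 1 or HuR 2 (adjusted p from 0.059 to 0.067, limma), the one in TIA1 cells also without TIA1 1 (0.99), and the DIAPH3 call was lost without HuR 2 (adjusted p = 0.058) or TIA1 2 (1.00). LASP1 encodes an actin-binding protein of focal adhesions and PARVB encodes β-parvin, a partner of integrin-linked kinase. FERMT1 encodes the integrin-binding kindlin-1, and its signal in TIA1 cells lay below that of the GFP arrays. LASP1 was at 0.91 on both HuR arrays and at 0.98 and 1.45 on the GFP arrays, against 1.90 to 2.40 on the TIA arrays. No gene of the 4 lists was called in a comparison with GFP by limma. It called 0% of all tested genes there, so this is not a result about the lists.

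**Figure D3:**
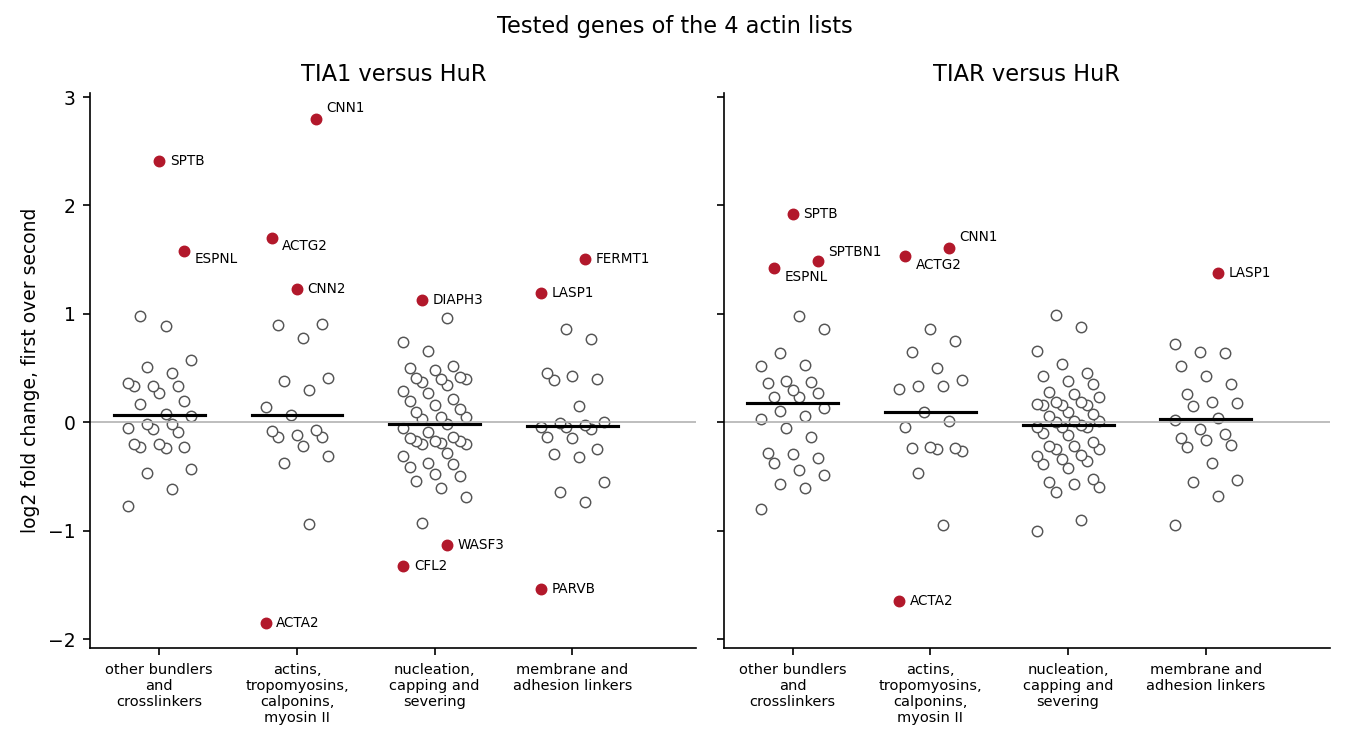
Log2 fold changes (vertical axis, first line over second) of the tested genes of the 4 actin lists in TIA1 versus HuR and TIAR versus HuR; each circle is a gene by its brightest probe, filled circles are called, and bars are list medians. Most genes lie within 1 log2 unit of 0, and the fitted value drawn for ACTG2 rests on HuR signals that were not well above background.

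No tested gene around LCP1 was lower in HuR cells by as much as LCP1 itself. Within 1 Mb of the LCP1 probe on chromosome 13 lay probes of 32 other gene names, of which 17 were tested in each comparison with HuR. In HuR cells 3 of the 17 were called lower than in TIA1 cells and 1 was called lower than in TIAR cells, and none was called higher, beside the 8.55% and 7.5% of all genes called lower in HuR in these comparisons. The medians of the tested neighbours, HuR minus the other line, were -0.39 for GFP, -0.45 for TIA1 and -0.12 for TIAR. Over all tested genes the medians were -0.02 for HuR against GFP, 0.08 for TIA1 against HuR and 0.06 for TIAR against HuR. The medians of the neighbours thus lay lower in HuR cells than those of all genes, least so against TIAR. With no filter on dim probes, the medians over all genes were also lower in HuR cells. They were then -0.46 for HuR against GFP, 0.30 for TIA1 against HuR and 0.22 for TIAR against HuR. Several tested neighbours were dim, so their shift cannot be read as particular to this region, and the part of brightness in it was not tested. The nearest was LOC283516 (AK096235), an uncharacterized transcript whose probe lies 3.6 kb from that of LCP1 and on the opposite strand (46696688 to 46696747). It read -6.19 and -5.59 in HuR, -2.83 and -2.60 in TIA1, -3.81 and -3.69 in TIAR and -4.08 and -5.83 in GFP cells, and was well above background on 1 of the 2 HuR and 1 of the 2 GFP arrays. LOC283516 was called higher than in HuR cells by 3.18 in TIA1 (standard error 0.24, adjusted p = 0.0032) and by 2.14 in TIAR cells (standard error 0.23, adjusted p = 0.0088), both from limma. It entered these tests only because it was well above background on both arrays of each TIA line. Both calls, also counted above, rest partly on a HuR signal at background. Where all 4 arrays had to be well above background, LOC283516 was not tested. It was dim in GFP cells, where LCP1 was bright.

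The other called neighbours were the uncharacterized transcripts LOC100190939 and XLOC_010376, 734.8 and 750.9 kb away, lower in HuR than in TIA1 cells by log2 fold changes of -1.50 and -1.06. The XLOC_010376 probe lies between the probes of LOC100190939 on the same strand, so these names may not be separate counts. The XLOC_010376 call was lost without HuR 1 and with quantile normalization, where TIA1 exceeded HuR cells by 0.96 and 0.83. It was also lost with normexp background correction (0.98), with normexp and quantile normalization (0.73) and with the authors' values (0.73). XLOC_010595, 12.2 kb from LCP1, differed by 0.15 and 0.19 in TIA1 and TIAR against HuR cells and was not called. ZC3H13, the nearest tested protein-coding gene on one side at 169.1 kb, differed by 0.20 and -0.18. KIAA0226L, 218.6 kb away on the other side, was well above background on the GFP arrays only, at -3.29 on GFP 1 and -4.35 on GFP 2. It entered the test against GFP only through those arrays. By their mean it was at least 4.58-fold lower in HuR than in GFP cells, without passing the adjusted test (adjusted p = 0.19, limma).

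**Figure D4:**
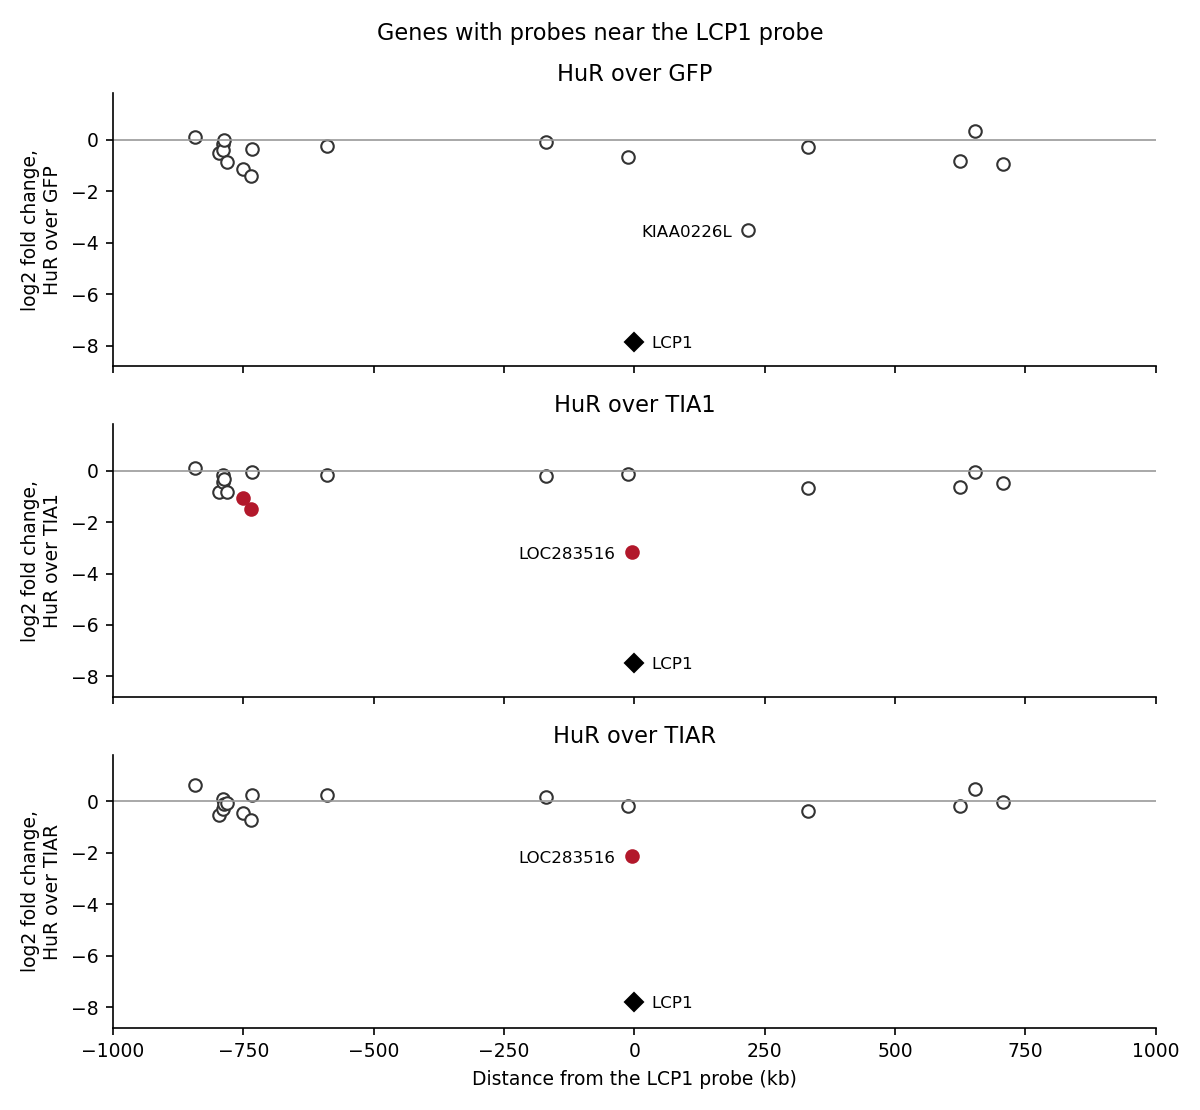
Log2 fold change of HuR over GFP, TIA1 and TIAR cells (vertical axes) for the tested genes within 1 Mb of the LCP1 probe, by distance in kb (horizontal axis); filled circles are called genes and the diamond is LCP1, drawn without a test. LOC283516 lies next to LCP1 and is below the other neighbours against TIA1 and TIAR, where the rest lie between -1.50 and 0.65.

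The 5 probes of other genes that came nearest to the pattern of LCP1 were not well above background on either HuR array, so neither their order nor their choice over other such probes can be read from these values. Likeness was measured as the root mean square difference between log2 signals over the 8 arrays, each probe centred on its own mean, and LCP1 itself ranged over 8.27 log2 units. In alphabetical order they were DECR1, GNAS-AS1, GUCY1B2, MFAP2 and ZNF22, at differences of 0.48 to 0.64. They stand, in turn, for a mitochondrial enzyme of fatty acid oxidation, an antisense RNA of the GNAS locus, a guanylate cyclase subunit annotated as noncoding, a microfibril protein of the extracellular matrix and a zinc finger protein. All 5 were well above background on the 6 arrays of the other lines, and LCP1 itself was well above background on the HuR arrays too. The GNAS-AS1 probe is not the brightest of its gene. With Pearson correlation as the measure, 1 of these 5, MFAP2, was among the first 5. For FSCN1 the nearest were AP3B2 (0.07), LOC100505894 (0.09) and LHX1 (0.09), each lowest on the HuR arrays. For PLS1 they were RPS4X, SIK3 and PPP4R1, and for PLS3 they were GALK2, SGPP2 and FANCF. For ACTN1 they were SLC25A28, NSUN2 and ANP32B, for ACTN4 they were ZC3H14, ATP5G2 and CCDC94, and for FLNA they were FAM127B, HCG18 and FANCI. These patterns describe 8 arrays that share a slide and carry no test.

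**Figure D5:**
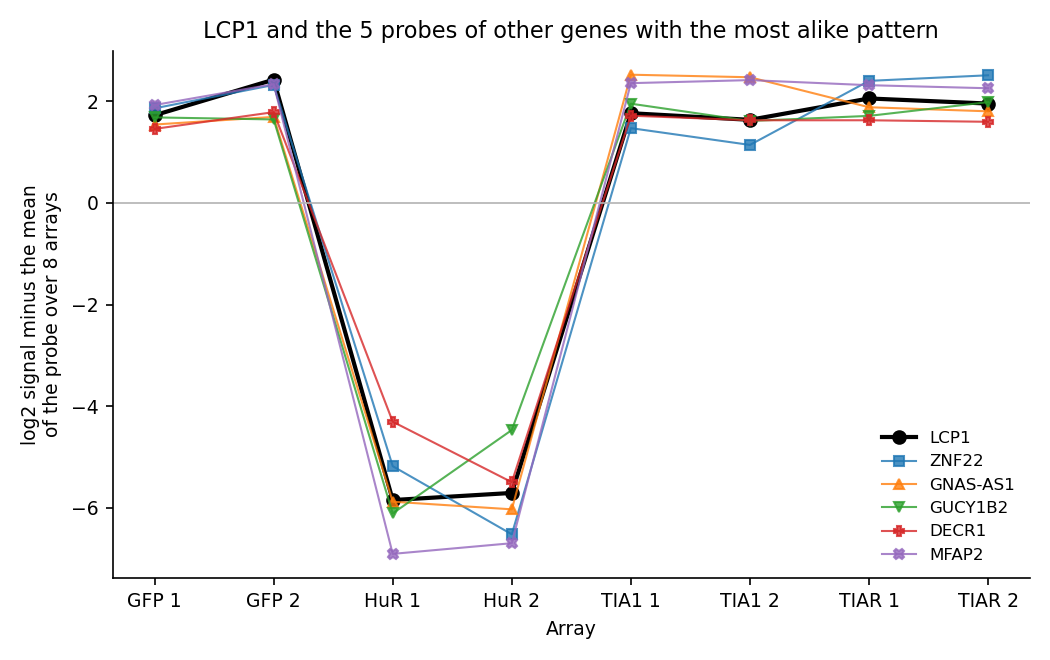
Log2 signal of LCP1 and of the 5 nearest probes of other genes, each minus its mean over the 8 arrays (vertical axis), on each array (horizontal axis). All 6 fall on the 2 HuR arrays, where only LCP1 was well above background.

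Of 10 leukocyte markers, 6 were well above background on both arrays of the HuR, TIA1 and TIAR lines and 5 on both GFP arrays. The 6 were PTPRC, ITGB2, CORO1A, SPI1, TYROBP and HCLS1, the last not on GFP 2, while CD37, CD53, LAPTM5 and LCP2 were well above background on both arrays of no line. The common leukocyte antigen gene PTPRC was at -3.94 and -4.66 in HuR, -4.45 and -4.50 in TIA1, -4.25 and -4.36 in TIAR and -4.15 on GFP 2, but 1.12 on GFP 1. The summed signal of the 10, relative to the 75th percentile and on a linear scale, was 0.662 to 0.763 on the HuR arrays, 0.963 to 0.972 on the TIA1 arrays, 0.828 to 0.91 on the TIAR arrays and 0.842 to 5.8 on the GFP arrays. The sum was lowest in the HuR line, where LCP1 was also lowest, and its part in the LCP1 difference was not tested. Of 5 brush border markers, CDHR2 and EPS8L2 were well above background on both HuR arrays, EPS8L2 also on both TIA1 and both TIAR arrays, and none of the 5 on both GFP arrays; VIL1, CDHR5 and USH1C were so in no line. Their summed signal was 0.0856 to 0.0899 on the HuR arrays, where PLS1 read highest, 0.0918 to 0.116 on the TIA1, 0.119 to 0.129 on the TIAR and 0.0979 to 2.28 on the GFP arrays, and its part in the PLS1 values was not tested. In bulk RNA, fewer cells with a transcript and less of it in each cell cannot be told apart.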

How the data were processed

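Total RNA of FT293 cells of 4 lines, 2 arrays each, was hybridized to one-colour Agilent 8x60K human arrays, as the series design and the scanner files state (the labelling protocol in the labels names a rat array). The authors deposited the output of Agilent Feature Extraction 10.7.3.1 for each array, whose processed signals are intensities with the background subtracted and the spatial trend of the array removed, not yet normalized to other arrays. The authors also deposited log2 values for the whole series (array medians from 7.36 to 7.51, both TIAR arrays at 7.36). The processing notes name limma, and the normalization is not given in the sources used here.

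Here, each intensity was put on the log2 scale, the array's 75th percentile over 58717 non-control spots was subtracted, outlier spots were dropped and replicate spots of a probe were averaged. Tested were probes with values on all 4 arrays that the scanner software marked well above background on both replicates of either line. Each comparison was fitted on its own 4 arrays with limma 3.58.1 (lmFit and eBayes) in R 4.3.3, tested on simulated data first, and p-values were adjusted by Benjamini-Hochberg over all probes tested. Precision is limited by the number of arrays, 2 for a line. A gene is represented by its probe with the highest mean log2 signal. "At least N-fold" is the bright line's mean against the dim line's mean of the higher, per array, of the lowest signal well above background and the probe's own signal.

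The genes, lists and alternatives were chosen with earlier results of these data known. Named were all probes of the 7 genes, up to 3 called genes of largest change per list and comparison, genes near LCP1, of which those described were picked after their values were seen, and the most alike patterns. Alternatives were normexp background correction (offset 50), quantile normalization, both, the authors' log2 values, other filters on dim probes, a joint fit of all 8 arrays (also with array weights), a replicate block, single arrays left out, the paired test of the study's methods, and Pearson correlation as the measure of likeness. Of 6 fibroblast markers, 4 were well above background on both arrays of the HuR, TIA1 and TIAR lines and 2 on both GFP arrays; COL1A2 and COL3A1 were so in no line. Positions of probes come from the scanner files (hg19, GRCh37) and sequences from RefSeq on GRCh38.p14. Other software was data.table, pandas and matplotlib.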

Additional observations from a re-analysis of the deposited data

How the results depend on the processing

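The call of FSCN1 in TIA1 against HuR cells was kept under all alternatives except the paired test of the study's methods after Benjamini-Hochberg adjustment, which called 0 genes of the set there and in TIAR against HuR cells. That test also called 0 of all 19274 and 0 of all 19499 genes in these comparisons, so its result is not particular to FSCN1 or the set. Of the genes tested, leaving out 1 array at a time gave 0 to 2 called in HuR against GFP cells, 0 to 2 in TIAR against HuR cells and 1 in TIA1 against HuR cells, and fitting all 8 arrays together gave 1 in HuR against GFP cells; the cause was not tested. When 1 array is left out, the lone array is assumed to vary like the other line. Counts of called genes over the whole array in HuR against GFP cells went from 0 to 512 lower and 267 higher with all 8 arrays in one fit, to 791 and 834 without GFP 1 and to 3580 and 854 without GFP 2. With all 8 arrays in one fit they went from 0 to 931 higher and 784 lower in TIA1 and 721 and 442 in TIAR against GFP cells, and without GFP 1 to 1365 and 828 and to 1000 and 316. In TIAR against TIA1 cells 259 higher and 198 lower became 0 and 0 without TIAR 1, with the block and with no filter on dim probes, and at most 19 and 4 without another array. Against HuR, 1648 higher and 952 lower in TIA1 cells became 1072 and 520 with normexp, 716 and 526 with normexp and quantile normalization and 712 and 523 with the authors' values; 1462 and 578 in TIAR cells became 867 and 325, 539 and 331, and 585 and 334, and 880 and 410 with all 8 arrays in one fit. In TIAR against TIA1 cells the first 3 of these settings gave 114 and 100, 122 and 104, and 125 and 108, and the joint fit called 131 higher. With array weights in the joint fit, 8 and 43 were called in HuR, 224 and 145 in TIA1 and 69 and 27 in TIAR against GFP cells. With the authors' values the differences from HuR shrank for ESPNL (0.72 in TIA1 and 0.44 in TIAR cells), ACTG2 (0.52 and 0.21), and, in TIAR cells, CNN1 (0.94) and LOC283516 (0.67), and none of these was called. Quantile normalization moved the median of all genes in HuR against GFP cells from -0.02 to 0.16. The replicate numbers did not pair the arrays, since the correlations of replicate differences between lines ran from -0.09 to 0.18. With the replicate number as a block, 1 gene of the set was called in TIA1 against HuR, 1 in TIAR against HuR and 0 in each of the other comparisons, with FSCN1 at 1.57 and 1.17. Within the 7 genes this changed no call, and outside them CNN1 and every other gene lost its call in TIAR against TIA1 cells.

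Small differences that were never called changed sign in 38 cases. With normexp background correction, log2 differences became -0.03 (ACTN4) and -0.16 (FLNA) for HuR against GFP, 0.04 (ACTN4) for TIA1 against HuR, 0.01 (ACTN4) for TIA1 against GFP, 0.04 (LCP1) and -0.13 (PLS1) for TIAR against GFP and 0.04 (ACTN1) for TIAR against TIA1. With quantile normalization they became -0.12 (ACTN4) and -0.11 (FLNA) for HuR against GFP. With both, they became -0.19 (ACTN4) and -0.34 (FLNA) for HuR against GFP, 0.08 (ACTN4) for TIA1 against HuR, 0.02 (ACTN4) for TIAR against HuR and 0.02 (ACTN1) for TIAR against TIA1. With the authors' values they became -0.19 (ACTN4) and -0.33 (FLNA) for HuR against GFP, 0.08 (ACTN4) for TIA1 against HuR, 0.04 (PLS3) and 0.09 (ACTN4) for TIAR against HuR, 0.06 (LCP1) for TIAR against GFP, and 0.11 (ACTN1) and 0.01 (ACTN4) for TIAR against TIA1. Leaving out 1 array at a time gave, from lowest to highest, -0.14 to 0.21 (ACTN4), -0.19 to 0.35 (FLNA) and -0.19 to 0.02 (PLS3) for HuR against GFP, -0.11 to 0.00 (ACTN4) for TIA1 against HuR, -0.04 to 0.31 (FSCN1), -0.20 to 0.15 (ACTN4), -0.33 to 0.21 (FLNA) and 0.00 to 0.70 (PLS1) for TIA1 against GFP, -0.42 to 0.28 (LCP1), -0.25 to 0.29 (PLS1) and -0.31 to 0.04 (ACTN4) for TIAR against GFP, -0.18 to 0.02 (ACTN1) and -0.68 to 0.02 (PLS1) for TIAR against TIA1.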
